A study of Mus musculus with 9 samples.

Results

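Cell surface receptors for collagen include the 2 families described here. The collagen-binding integrins pair an α1, α2, α10 or α11 subunit (Itga1, Itga2, Itga10, Itga11) with the shared β1 subunit (Itgb1), and the discoidin domain receptors DDR1 and DDR2 (Ddr1, Ddr2) are receptor tyrosine kinases that fibrillar collagen activates. These 7 genes were chosen by name from 52780 genes in the deposited table, with earlier results of these data known. The study had already picked out Itga11 in the same RNA data as changed in opposite directions by the knockdowns. All 7 were among the 19545 genes with enough counts to test. mRNA was measured in C2C12 cells, an immortal mouse myoblast line, collected after 4 days in differentiation medium as 3 samples of WT, 3 of si mH2A1.1 and 3 of si mH2A1.2. The siRNAs, used at 10 nM, target the macroH2A1.1 or the macroH2A1.2 splice isoform of the histone variant macroH2A1. All 9 samples share the wild-type C2C12 background, and the labels name no siRNA for the WT samples, although the study's methods list a scramble siRNA. Such cultures hold fused myotubes beside unfused cells, so that in these bulk values fewer cells of a type and less RNA per cell cannot be told apart.

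The α subunit of each integrin sets its ligand and its cell type. α1β1 and α2β1 are classically receptors for network and fibrillar collagens on mesenchymal, endothelial and epithelial cells and platelets. α10β1 is best known from chondrocytes and α11β1 from fibroblasts, where it binds fibrillar collagen. β1 also pairs with α subunits for laminin and fibronectin, among them α7, the main laminin receptor of skeletal muscle fibres. Integrins signal through a plaque of adaptors and kinases, whereas the discoidin domain receptors phosphorylate their own cytoplasmic tail.

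Samples held between 36924252 and 42223108 counts in total, and levels are given in CPM, counts relative to the library's size, after TMM scaling. H2afy, the gene of both targeted isoforms, was lower with si mH2A1.1 (log2 fold change -0.85 against WT, edgeR quasi-likelihood test, adjusted p = 0.0033) and did not pass with si mH2A1.2 (-0.39, adjusted p = 0.108, unadjusted p = 0.00526), where DESeq2 called it and limma-voom did not, although its CPM did not overlap between WT and either knockdown. Gene counts do not separate the isoforms. Markers of myotubes were abundant in all 9 samples, whereas endothelial markers summed to at most 1.68 CPM and adipocyte markers to at most 1.55 CPM.

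The 7 genes lie on 6 chromosomes in GENCODE M21 on GRCm38. Itga1 (ENSMUSG00000042284, chr13:114953096-115101964) and Itga2 (ENSMUSG00000015533, chr13:114833081-114932100) are neighbours on the minus strand. Itga10 (ENSMUSG00000090210, chr3:96645584-96664519) and Itga11 (ENSMUSG00000032243, chr9:62677826-62783982) are on the plus strand, as is Itgb1 (ENSMUSG00000025809, chr8:128685654-128733200). Ddr1 (ENSMUSG00000003534, chr17:35681567-35704621) and Ddr2 (ENSMUSG00000026674, chr1:169972307-170110762) are on the minus strand. Some reads of 4 of the genes could belong to an overlapping gene. Itga1, with a mean of 1.06 CPM over the 9 samples, overlaps Pelo (7.26 CPM, 242 to 329 counts a sample) and Gm49395 (0.217 CPM) on its own strand, and Itga10 overlaps Gm42957, which had a mean of 0.743 CPM against 24.4 CPM for Itga10. Ddr1 and Ddr2 each overlap an antisense gene that averaged less than 0.2 CPM, and Ddr1 also overlaps Gm23864 on its own strand (0.0439 CPM). Among the genes of the deposited table, none overlaps Itga2, Itga11 or Itgb1. These overlaps are of whole gene spans, not of exons.

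The expressed collagen receptor genes differed widely in level. Levels between genes are compared as CPM per kb of the longest coding transcript. In WT cells Itgb1 was at 358 ± 19.5 CPM per kb (SD, n = 3), Ddr2 at 46.0 ± 4.90 and Ddr1 at 29.4 ± 3.61. The α subunits lay below these, with Itga10 at 4.83 ± 2.43 CPM per kb, Itga11 at 2.57 ± 1.06, Itga1 at 0.118 ± 0.0499 and Itga2 at 0.0446 ± 0.0210. Neighbours in this order did not overlap between WT samples, except Itga10 with Itga11 and Itga1 with Itga2. With si mH2A1.1 the order was the same and no neighbours overlapped, but the order of Itga1 and Itga2 depended on the length used. Per kb of all exons together, a length chosen after seeing the data, Itga1 was at 0.0351 and Itga2 at 0.0438 CPM per kb with si mH2A1.1, again without overlap. With si mH2A1.2 the order of Itga11 (9.49 ± 1.45 CPM per kb) and Itga10 (8.92 ± 3.26) was exchanged, but their samples overlapped. Among the 7 genes, Ddr2 and Ddr1 were above the 4 α subunits in every group with either length.

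**Figure D1:**
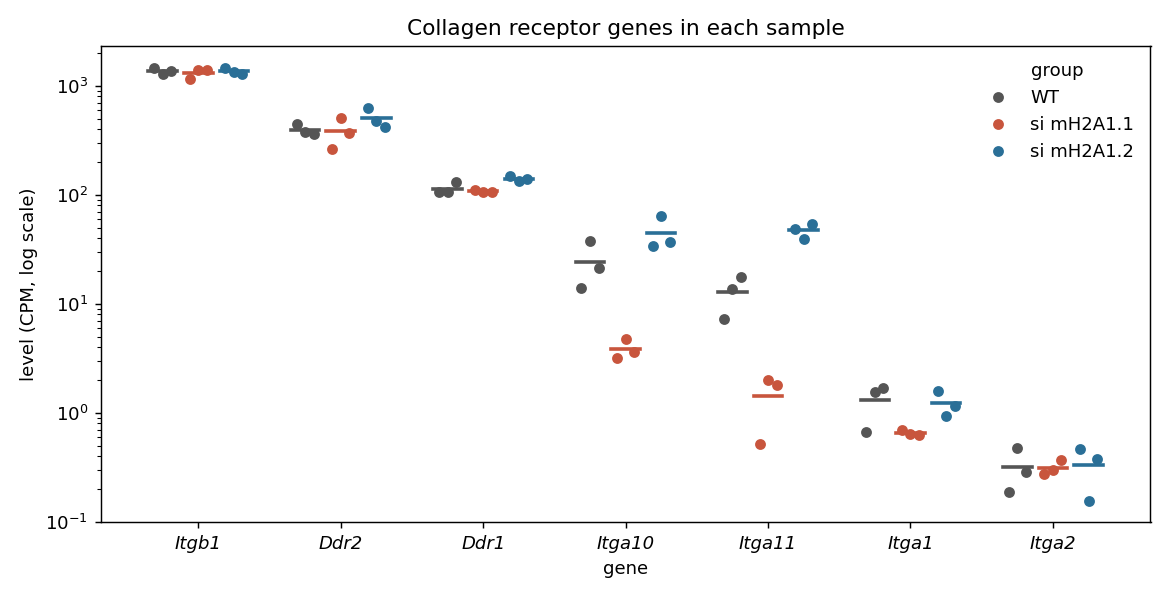
Level of each collagen receptor gene in CPM (log axis) in each of the 9 samples, coloured by group, with a bar at the mean of the 3 samples. For Itga10 and Itga11 the si mH2A1.1 points lie below all other points of the same gene, and for Itga11 the si mH2A1.2 points, from 39.3 to 53.4 CPM, lie above all others of that gene.

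Two-sided edgeR quasi-likelihood tests with Benjamini-Hochberg adjustment over all 19545 genes were used, and a gene was called at an adjusted p of at most 0.05. The knockdowns share the WT samples in their comparisons with WT, so that these are not independent of each other. The direct comparison of si mH2A1.1 with si mH2A1.2 tests the difference between them.

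Itga10 and Itga11 fell with si mH2A1.1, and the other 5 collagen receptor genes did not pass the test. The 2 called genes compare with 11.1% of all tested genes called in this comparison, 4.93% lower and 6.18% higher. Both also met a stricter rule, an adjusted p below 0.01 together with a log2 fold change of 0.8 or more in size, which 1.8% of all genes met. The same 2 genes had CPM that did not overlap between the groups, as did 34.2% of all genes. The median log2 fold change of the 7 genes was -0.07, beside -0.01 over all genes.

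Itga11 rose with si mH2A1.2, and no other collagen receptor gene passed the test. The single called gene compares with 2.35% of all genes called, 1.37% higher and 0.982% lower. With edgeR none of the 7 met the stricter rule, which 0.179% of all genes met. At an unadjusted p under 0.05 there were 3 of the 7 (Itga10, Itga11 and Ddr1). The share of all genes at that level was not computed, here or for the lists below. DESeq2 gave Itga11 an adjusted p of 0.00881 at a log2 fold change of 1.88. Itga11 and Ddr1 did not overlap between the groups, as was the case for 22.5% of all genes. The median log2 fold change of the 7 genes was 0.30, beside a median of all genes of -0.00. The replicate numbers paired these samples, and with the number as a block Itga10 was called as well, which made 2 called genes.

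Between the knockdowns, Itga10, Itga11 and Ddr1 were lower with si mH2A1.1 than with si mH2A1.2, and none of the 7 was higher. In this comparison 22.5% of all genes were called, 10.5% lower and 12% higher. Itga10 and Itga11 met the stricter rule, as did 6.38% of all genes. Itga1, Itga10, Itga11 and Ddr1 did not overlap between the knockdowns, beside 39.7% of all genes. The median log2 fold change of the 7 genes was -0.40, and that of all genes was -0.01.

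**Figure D2:**
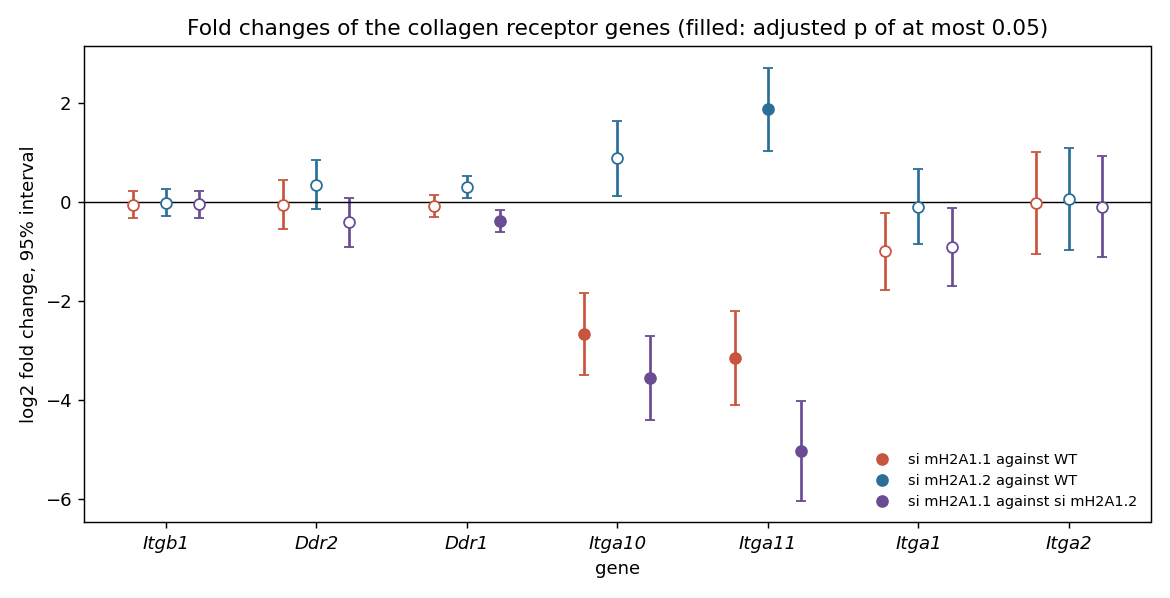
Log2 fold change of each collagen receptor gene in the 3 comparisons, with 95% intervals from the edgeR fit. Filled points are called at an adjusted p of at most 0.05, which holds for Itga10 and Itga11 in both comparisons with si mH2A1.1 as the first group, for Itga11 with si mH2A1.2 against WT and for Ddr1 between the knockdowns.

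Itga11 encodes the α11 subunit, whose integrin binds fibrillar collagen I. It was at 7.17, 13.5 and 17.6 CPM in the WT samples. With si mH2A1.1 it was at 0.519, 2.00 and 1.80 CPM, which rests on 21, 81 and 78 counts. With si mH2A1.2 it was at 48.8, 39.3 and 53.4 CPM. The 3 groups did not overlap, and the largest value with si mH2A1.1 was below the smallest WT value. Against WT, Itga11 had a log2 fold change of -3.15 ± 0.43 (SE) with si mH2A1.1 (adjusted p = 0.00383), 8.85-fold lower with a 95% interval of -4.10 to -2.19 on the log2 scale. With si mH2A1.2 it was 1.88 ± 0.38 (adjusted p = 0.0347), 3.69-fold higher with an interval of 1.04 to 2.72. In the pairs of equal replicate number Itga11 was 6.80, 2.90 and 3.03 times its WT level with si mH2A1.2, higher in 3 of 3 pairs. Under the replicate block the adjusted p was 0.0120. Between the knockdowns the log2 fold change was -5.03 ± 0.45 (adjusted p = 0.000199), 32.6-fold lower with si mH2A1.1. The rise with si mH2A1.2 was close to the threshold. It was no longer called, with adjusted p between 0.0584 and 0.104, when WT replicate 1, 2 or 3, si mH2A1.2 replicate 1, 2 or 3, or si mH2A1.1 replicate 3 was left out, with log2 fold changes of 1.60 to 2.18.

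Itga10 encodes the α10 subunit, the collagen receptor best known from cartilage. WT samples held 13.8, 37.8 and 21.5 CPM. With si mH2A1.1 the values were 3.19, 4.74 and 3.59 CPM, and with si mH2A1.2 they were 34.2, 64.0 and 36.8 CPM. All si mH2A1.1 samples were below all others, whereas WT replicate 2 lay within the range of the si mH2A1.2 samples. Itga10 had a log2 fold change of -2.66 ± 0.38 in the si mH2A1.1 samples (adjusted p = 0.00421), 6.34-fold lower with an interval of -3.50 to -1.83. With si mH2A1.2 it was 0.89 ± 0.34 and did not pass without the block (adjusted p = 0.238). WT replicate 2 was the highest WT sample and si mH2A1.2 replicate 2 was the highest of its group. Within the pairs Itga10 was 2.48, 1.69 and 1.71 times its WT level, and with the replicate block the log2 fold change was 0.93 with an adjusted p of 0.0130. Between the knockdowns Itga10 was 11.7-fold lower with si mH2A1.1 (log2 fold change -3.55 ± 0.39, adjusted p = 0.000418). The calls of Itga10 and Itga11 with si mH2A1.1, against WT and against si mH2A1.2, were kept when any sample was left out, with adjusted p of at most 0.0246.

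Itga10 and Itga11 are the collagen receptor genes called in the largest number of comparisons, so the sequences around their starts are shown, from 250 bases before to 50 bases after the RefSeq start site on GRCm38.p6, both on the plus strand. All 7 genes had such a window. The Itga10 window spans chr3:96645334-96645633 and has 51% G and C. The Itga11 window spans chr9:62677605-62677904 and has 68%, beside a median of 52.7% over all 32851 windows. Capitals mark the ETS core GGAAG, which in both windows is read on the opposite strand, 91 bases before the start in Itga10 and 39 bases before it in Itga11.
Itga10: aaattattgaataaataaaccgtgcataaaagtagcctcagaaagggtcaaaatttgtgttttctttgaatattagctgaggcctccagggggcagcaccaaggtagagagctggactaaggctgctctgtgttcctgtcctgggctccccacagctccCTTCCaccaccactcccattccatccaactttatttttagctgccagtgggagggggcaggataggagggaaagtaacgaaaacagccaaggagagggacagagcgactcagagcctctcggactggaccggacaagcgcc
Itga11: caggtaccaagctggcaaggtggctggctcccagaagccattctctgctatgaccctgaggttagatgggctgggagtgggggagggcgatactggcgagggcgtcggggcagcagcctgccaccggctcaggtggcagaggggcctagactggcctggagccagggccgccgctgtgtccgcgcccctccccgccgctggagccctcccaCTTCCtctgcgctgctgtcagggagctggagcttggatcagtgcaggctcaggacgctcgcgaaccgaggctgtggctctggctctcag

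The ETS core on either strand occurs in 71.4% of all windows, so that its presence in both is no distinction. The E-box CANNTG, the letters that myogenic bHLH factors read, occurs once in the Itga11 window, 121 bases before the start, and not in the Itga10 window; 72.3% of all windows hold it. Neither window holds the GC box GGGCGG (35.7% of all windows), the SMAD box CAGAC (49.6%), the AP-1 site TGANTCA (7.81%) or TATAAA (13.6%), each searched on both strands. These matches describe letters in a window of 300 bases and are not evidence of binding.

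Itga1 and Itga2, the subunits of the classical collagen receptors, had the fewest counts of the 7 genes. Itga1, whose reads could in part belong to the more abundant Pelo, was at 0.669, 1.55 and 1.68 CPM in WT, at 0.692, 0.642 and 0.622 CPM with si mH2A1.1 and at 1.57, 0.939 and 1.15 CPM with si mH2A1.2, between 25 and 65 counts a sample. The si mH2A1.1 samples were close together and below 2 of the 3 WT samples and all si mH2A1.2 samples. Neither difference passed, with log2 fold changes of -0.99 ± 0.35 against WT (adjusted p = 0.0925) and -0.90 ± 0.35 against si mH2A1.2 (adjusted p = 0.0930). Both were called when WT replicate 1, the lowest WT sample, was left out of the fit, with log2 fold changes of -1.30 (adjusted p = 0.0286) and -0.90 (adjusted p = 0.0367). Itga2 had 6 to 18 counts a sample and between 0.157 and 0.480 CPM. Its groups overlapped in each comparison. The 95% interval against WT ran from -1.05 to 1.01 with si mH2A1.1 and from -0.97 to 1.1 with si mH2A1.2. These intervals reach differences of about 2-fold in either direction.

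Itgb1, the partner that all 4 α subunits need to reach the surface, was at 1442, 1293 and 1364 CPM in WT. With si mH2A1.1 it was at 1158, 1389 and 1406 CPM and with si mH2A1.2 at 1467, 1328 and 1286 CPM. The 3 groups overlapped. Against WT its log2 fold changes were -0.05 (95% interval -0.32 to 0.22) for si mH2A1.1 and -0.01 (-0.28 to 0.26) for si mH2A1.2, and it was -0.05 between the knockdowns (-0.32 to 0.23). These intervals are narrower than those of the α subunits.

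Of the discoidin domain receptors, Ddr1 was called between the knockdowns and Ddr2 in no comparison. Ddr1, the receptor best known from epithelia, was at 105, 106 and 130 CPM in WT. With si mH2A1.1 it was at 111, 107 and 106 CPM, and with si mH2A1.2 at 148, 133 and 140 CPM. All si mH2A1.2 samples were above all others, although the highest WT sample was close to them. The log2 fold change between the knockdowns was -0.37 ± 0.10 (adjusted p = 0.0250), 1.30-fold lower with si mH2A1.1. Against WT the values were -0.07 (adjusted p = 0.671) with si mH2A1.1 and 0.30 ± 0.10 (adjusted p = 0.171) with si mH2A1.2. The call between the knockdowns was lost, at adjusted p of 0.0511 to 0.0801 and log2 fold changes of -0.34 to -0.40, without si mH2A1.1 replicate 1, 2 or 3 or si mH2A1.2 replicate 1 or 3. Ddr2, the mesenchymal receptor for fibrillar collagen, was at 443, 380 and 363 CPM in WT, at 265, 509 and 370 CPM with si mH2A1.1 and at 620, 474 and 419 CPM with si mH2A1.2. The si mH2A1.1 samples spread across both other groups. Ddr2 had log2 fold changes of -0.05 (95% interval -0.55 to 0.44), 0.35 (-0.14 to 0.85) and -0.40 (-0.90 to 0.09). Without si mH2A1.1 replicate 2, its highest value in that group, Ddr2 was lower with si mH2A1.1 than with si mH2A1.2 (-0.67, adjusted p = 0.0406).

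Because Itga10 and Itga11 were called and Itgb1 was not, the make-up of the β1 partner pool was computed per sample from CPM per kb. The 4 collagen-binding α subunits summed to 4.27, 10.4 and 8.0 CPM per kb in the WT samples. With si mH2A1.1 the sums were 0.837, 1.44 and 1.18, and with si mH2A1.2 they were 16.8, 20.7 and 18.2 CPM per kb. The 3 groups did not overlap, and an exact two-sided permutation test gave p = 0.1 for each pair of groups, the smallest that 3 against 3 samples allow. Itga10 and Itga11 together made up nearly all of the sum in WT, with 63.1 ± 9.35% (SD, n = 3) and 34.8 ± 9.14%. The separation of the sums is therefore not evidence apart from the calls of these 2 genes. The share of Itga11 was 23.6 ± 9.78% after macroH2A1.1 knockdown and 51.9 ± 11.8% after macroH2A1.2 knockdown. The shares overlapped between WT and each knockdown (exact permutation p = 0.3 and 0.2) and did not overlap between the knockdowns (exact permutation p = 0.1). Itga1 and Itga2 took 5.46 ± 1.83% and 3.95 ± 0.920% of the lower sum with si mH2A1.1, against 1.56 ± 0.302% and 0.588 ± 0.0788% in WT. These shares depended on the length used, and that of Itga1 ran from 3.39% to 10.97% with si mH2A1.1 and from 0.955% to 3.35% in WT.

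**Figure D3:**
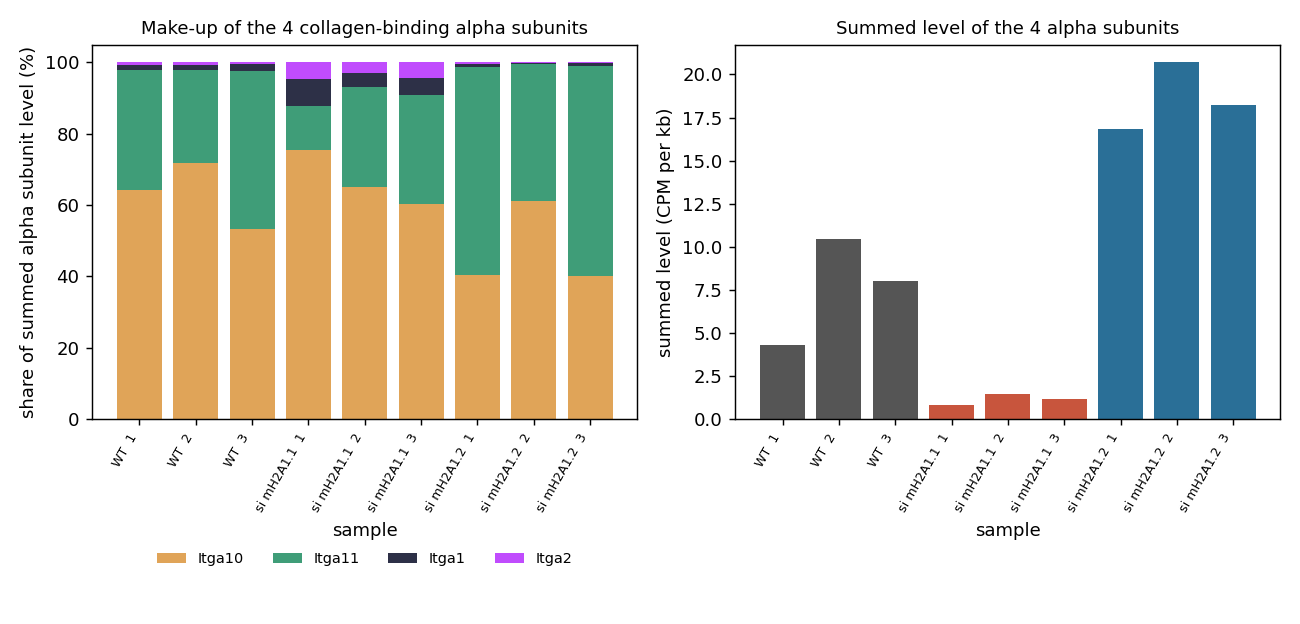
Left, share of each of the 4 collagen-binding α subunit genes in their summed level (%, from CPM per kb) in each sample, which adds to 100%. Right, the summed level in CPM per kb, with bars coloured by group; the si mH2A1.1 samples lie from 0.837 to 1.44 and those of si mH2A1.2 from 16.8 to 20.7.

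Among 12 genes of α subunits that can pair with β1, the collagen-binding subunits were a minority. They held 1.17 ± 0.621% of the summed level in WT, 0.137 ± 0.0359% in the si mH2A1.1 samples and 3.40 ± 0.921% in the si mH2A1.2 samples, without overlap (exact permutation p = 0.1 for each pair of groups). This separation is not independent of the calls of Itga10 and Itga11 either. Itga7, the laminin receptor of muscle, was the largest at 465 ± 142 CPM per kb in WT. It was followed by Itga5, a fibronectin receptor subunit, at 123 ± 5.84 CPM per kb. Of the 8 other β1 partners, Itga3 and Itga8 were lower with si mH2A1.1, whereas Itgav was higher and Itga6 lower with si mH2A1.2 (1 higher and 2 lower under the replicate block). The median log2 fold change of these 8 was -0.24 in the first and -0.15 in the second comparison with WT. Between the knockdowns Itga3, Itga8 and Itgav were lower in the si mH2A1.1 samples, Itga4, Itga6 and Itga7 were higher there, with a median of -0.48. Of the 7 other β subunits, Itgb5 was lower in the si mH2A1.1 samples than in WT, Itgb2 and Itgb7 were higher there, Itgb4 and Itgb5 were higher with si mH2A1.2, and the medians were -0.13 and 0.42. The replicate block called 3 of these 7 higher and 1 lower with si mH2A1.2. Between the knockdowns 3 were lower with si mH2A1.1 (Itgb3, Itgb4 and Itgb5) and 2 higher (Itgb2 and Itgb7).

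Genes of the ligands showed called differences in the same comparisons. Fibrillar collagens are the main ligands of α11β1 and the discoidin domain receptors. Of 10 tested fibrillar collagen genes, 6 were lower with si mH2A1.1 (Col1a1, Col1a2, Col3a1, Col5a1, Col5a2 and Col11a1) and Col27a1 was higher (log2 fold change 1.45, adjusted p = 0.00429), with a median of -0.70. With si mH2A1.2 edgeR called none, with a median of 0.50; 5 were at an unadjusted p under 0.05, DESeq2 called 4, limma-voom 1 and the replicate block 2. Between the knockdowns 6 were lower with si mH2A1.1, Col27a1 was higher, and the median was -1.1. Col1a1, the α1 chain of collagen I, ranged from 2108 to 3396 CPM in WT, from 268 to 843 with si mH2A1.1 and from 6435 to 9381 with si mH2A1.2, without overlap. The si mH2A1.1 samples were at a log2 fold change of -2.38 against WT (adjusted p = 0.00558), and the si mH2A1.2 samples were at 1.41 without passing the test (adjusted p = 0.0762). Col1a2, the α2 chain of the same collagen, was -0.71 (adjusted p = 0.0386) and 0.69 (adjusted p = 0.0917). Col11a1, a minor chain of fibrils, was at 6.75 to 13.8 CPM in WT and 0.445 to 1.09 with si mH2A1.1 (log2 fold change -3.51, adjusted p = 0.00148).

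Network and beaded-filament collagens, to which α1β1 and α10β1 can bind, had 12 tested genes. Of these, Col6a1, Col6a2 and Col8a2 were lower with si mH2A1.1, Col8a1 and Col8a2 were higher after knockdown of macroH2A1.2, and the list had medians of -0.39 and 0.79. In the comparison of si mH2A1.2 with WT the replicate block called 3 of the 12 and DESeq2 5, and 7 were at an unadjusted p under 0.05. Between the knockdowns 9 were lower with si mH2A1.1 and 1 (Col6a4) was higher, with a median of -1.16. Col8a2 was at 0.562 to 3.89 CPM in WT, at 0.0494 to 0.198 with si mH2A1.1 (at most 8 counts) and at 27.2 to 49.1 with si mH2A1.2. Its log2 fold changes against WT were -4.30 (adjusted p = 0.00916) and 3.79 (adjusted p = 0.0106). Col6a1, a collagen VI chain, ranged from 519 to 835 CPM in WT and from 125 to 287 with si mH2A1.1 (log2 fold change -1.83, adjusted p = 0.00526). The chains of collagen IV, the basement membrane collagen, did not pass against WT in either knockdown. Between the knockdowns Col4a1, Col4a2, Col4a5 and Col4a6 were among the genes lower with si mH2A1.1. Of 13 tested genes of other collagens, Col12a1, Col16a1 and Col20a1 were lower with si mH2A1.1, whereas Col9a3 and Col14a1 were higher. With si mH2A1.2 Col12a1 was higher and Col20a1 lower, and the block called 2 higher and 1 lower. Between the knockdowns Col12a1 and Col16a1 were lower with si mH2A1.1, Col9a3 and Col14a1 were higher, and the medians of the 3 comparisons were -0.21, -0.01 and 0.01. Col12a1, which decorates collagen I fibrils, was -1.73 (adjusted p = 0.0108) with si mH2A1.1 and 1.44 (adjusted p = 0.0454) with si mH2A1.2.

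**Figure D4:**
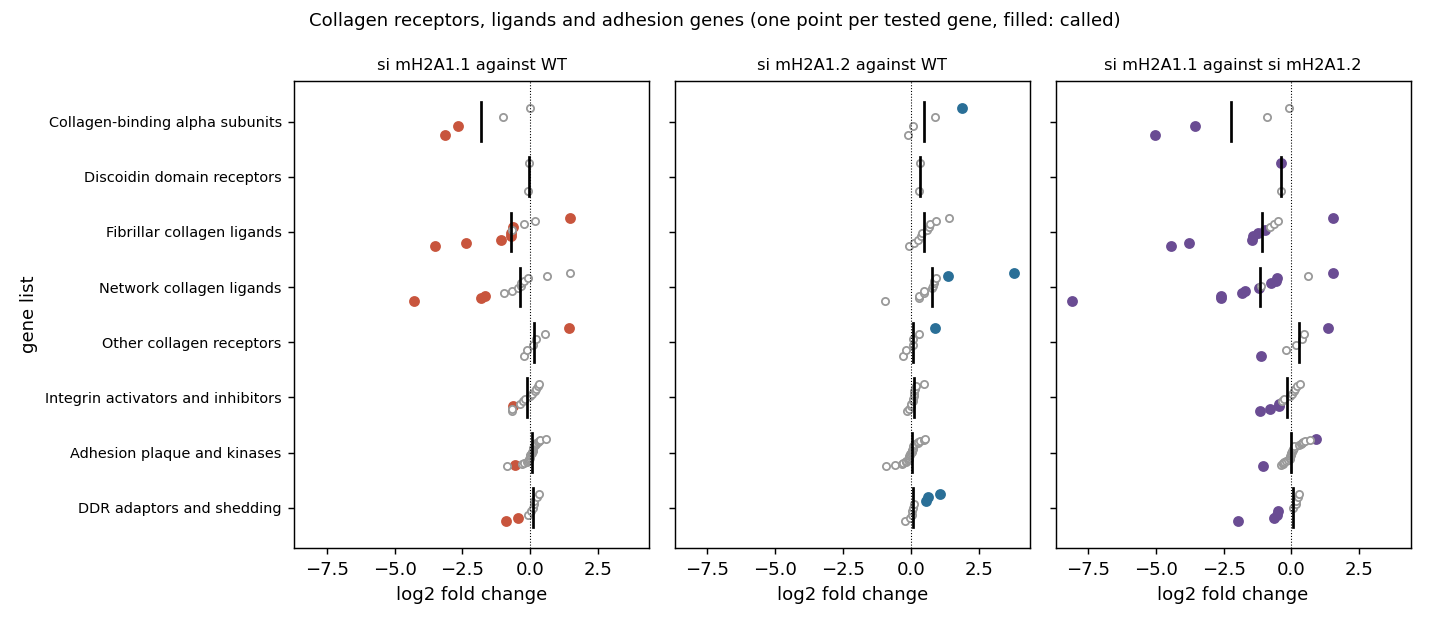
Log2 fold change of the tested genes in lists of collagen receptors, collagen ligands and adhesion genes in the 3 comparisons on a common axis; each point is a gene, coloured points are called at an adjusted p of at most 0.05, and black ticks are list medians. Called fibrillar and network collagens lie mostly at negative values with si mH2A1.1, and at most 2 of the 26 adhesion plaque genes are called in a panel.

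Of 6 tested genes of other collagen receptors, Mrc1 was higher with si mH2A1.1 and Mrc2, the endocytic receptor that clears collagen fragments, was higher with si mH2A1.2 (log2 fold change 0.89, adjusted p = 0.0381), with medians of 0.15 and 0.06. Between the knockdowns Mrc1 was higher and Mrc2 lower with si mH2A1.1, with a median of 0.29. Of 12 tested activators and inhibitors of integrins, Itgb1bp2, the muscle protein melusin that binds the β1 tail, was lower with si mH2A1.1 (log2 fold change -0.62, adjusted p = 0.0213), none was called with si mH2A1.2, and Fermt2, Itgb1bp2, Apbb1ip and Nisch were lower with si mH2A1.1 than with si mH2A1.2. The medians were -0.10, 0.10 and -0.17. Against WT, 5 were at an unadjusted p under 0.05 with si mH2A1.1, DESeq2 called 3, limma-voom 1 and the replicate block 4. Between the knockdowns these numbers were 6, 5, 4 and 6. With si mH2A1.2 none of these 12 was at an unadjusted p under 0.05, and DESeq2, limma-voom and the replicate block called none.

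Of 26 adhesion plaque and kinase genes, Tns3, a tensin that links integrin tails to actin, was the single gene called with si mH2A1.1 (log2 fold change -0.55, adjusted p = 0.0284). In that comparison DESeq2 and limma-voom each called 1, the replicate block called 2 higher and 2 lower, and 7 were at an unadjusted p under 0.05. With si mH2A1.2 edgeR and limma-voom called none, DESeq2 called 2, the replicate block called 1, and 6 were at an unadjusted p under 0.05. Between the knockdowns Tns3 was lower and Lims2 higher with si mH2A1.1, DESeq2 called 6, limma-voom 3 and the block 6 higher and 2 lower, 9 were at an unadjusted p under 0.05, and the medians of the list were 0.08, 0.03 and 0.00. Of 9 genes of adaptors and proteases that act with the discoidin domain receptors, Shc1 and Mmp2 were lower with si mH2A1.1, and Pik3r1, Mmp14 and Mmp2 were higher with si mH2A1.2. Between the knockdowns Shc1, Pik3r1, Mmp14 and Mmp2 were lower with si mH2A1.1, and the medians were 0.11, 0.10 and 0.04. Mmp2, the gelatinase whose expression DDR2 signalling is known to raise, was at 98.6 to 158 CPM in WT, at 46.0 to 90.4 with si mH2A1.1 and at 263 to 270 with si mH2A1.2. Its log2 fold changes against WT were -0.88 (adjusted p = 0.0350) and 1.08 (adjusted p = 0.0404).

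Of 16 tested TGF-β pathway and mesenchymal regulators, Tgfb3 and Runx2 were lower, and Tgfb2 and Tgfbr1 higher with si mH2A1.1, with a median of -0.29. In that comparison the replicate block called 2 higher and 6 lower, DESeq2 called 8, limma-voom 3, and 10 were at an unadjusted p under 0.05. With si mH2A1.2 Tgfbr2, the type II receptor of the pathway known to induce α11, was higher (log2 fold change 0.78, adjusted p = 0.0253), with a median of 0.22, and the replicate block called 2. Between the knockdowns 8 were lower with si mH2A1.1, Tgfbr1 was higher, and the median was -0.58.

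Markers of other cells and states moved in the same comparisons. Of 5 tested fibroblast markers, Lum was lower with si mH2A1.1 (log2 fold change -2.74, adjusted p = 0.00608) and Dpt higher with si mH2A1.2 (1.74, adjusted p = 0.0365). Between the knockdowns both were lower with si mH2A1.1, and the medians of the list were -0.18, 0.53 and -0.60. Dcn and Pdgfra were not lower with si mH2A1.1, with means of 342 and 13.6 CPM against 329 and 12.6 CPM in WT. The mean of Lum was 11.2 CPM with si mH2A1.2 against 16.0 CPM in WT, opposite to Dpt. The 6 markers of this list summed to 313 to 417 CPM in WT, 237 to 493 with si mH2A1.1 and 556 to 594 with si mH2A1.2, and Tcf21 had at most 3 counts in every sample. The 3 tenocyte markers summed to 25.1 to 35.6 CPM in WT, 32.2 to 62.9 with si mH2A1.1 and 30.7 to 39.5 with si mH2A1.2. Of the 2 tested, edgeR called none in any comparison, and DESeq2 called 1 with si mH2A1.1 against WT. With si mH2A1.1 the mean of Scx was 46.1 CPM against 29.8 CPM in WT, and that of Mkx was 0.217 against 0.272 CPM. Of 12 myotube markers, Myog, Mymx and Actn2 were lower and Myh1 higher with si mH2A1.1, and Myh1, Tnnt3, Des and Actn2 were lower with si mH2A1.2, where the replicate block called 5 lower. Between the knockdowns Myh1, Ckm, Tnnt3, Des and Actn2 were higher and Myog and Mymx lower with si mH2A1.1. The 12 summed to 19099 to 28550 CPM in WT, 18753 to 22944 with si mH2A1.1 and 16243 to 20620 with si mH2A1.2. The 6 markers of proliferating or reserve myoblasts summed to 330 to 472 CPM in WT, 453 to 747 with si mH2A1.1 and 250 to 358 with si mH2A1.2. Against WT, edgeR without the block called none of them with si mH2A1.1, where all 6 had positive log2 fold changes (median 0.60). In that comparison 3 were at an unadjusted p under 0.05, DESeq2 called 1, limma-voom 0 and the replicate block 4, all higher. Against WT Myf5 was lower with si mH2A1.2, and between the knockdowns 5 were higher with si mH2A1.1. Of the 12 interferon-stimulated genes, 11 were higher with si mH2A1.1 (median 3.46). With si mH2A1.2 edgeR and limma-voom called 0 of them and DESeq2 1, 2 were at an unadjusted p under 0.05, and the median was -0.12. Cd68, the only immune marker with enough counts to test, was higher with si mH2A1.1 (log2 fold change 1.62, adjusted p = 0.00565), and the 5 immune markers summed to 2.71 to 3.92 CPM in WT, 6.00 to 11.3 with si mH2A1.1 and 3.05 to 3.47 with si mH2A1.2. The 5 epithelial markers summed to 2.06 to 3.77 CPM in WT, 1.22 to 1.58 with si mH2A1.1 and 3.30 to 18.5 with si mH2A1.2, and Epcam, Krt5 and Krt20 had at most 3 counts in every sample. Of the 2 that could be tested, the keratin gene Krt14 was lower with si mH2A1.1 than with si mH2A1.2 (log2 fold change -3.59, adjusted p = 0.00507). Against WT edgeR called neither in either knockdown, and with si mH2A1.2 Krt14 was at 2.18 (adjusted p = 0.102), where 1 was at an unadjusted p under 0.05, DESeq2 and the replicate block called 1 and limma-voom 0. The part of all these in the values of Itga10, Itga11 and Ddr1 was not tested. Of 4 markers of chondrocytes, the cells in which α10 is best known, and osteoblasts, Acan and Ibsp had at most 3 counts a sample. The list summed to 39.7 to 49.6 CPM, of which Bglap gave at most 1.01 CPM and Sox9 nearly all. The mean of Sox9 was 45.3 CPM in WT, 47.7 CPM after macroH2A1.1 knockdown and 40.9 CPM after macroH2A1.2 knockdown.

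Genes with the most similar pattern over the 9 samples were found by Pearson correlation of log2 CPM among 14378 genes with a mean of at least 1 CPM, as a description, since all points share libraries and groups. Itga11 was closest to Adamtsl3 (r = 0.995), Igf1 (0.993) and Nfib (0.993). Itga10 was closest to Trhde (0.992), Birc2 (0.991) and Rflnb (0.990). The r between Itga10 and Itga11 themselves was 0.947. Ddr1 was closest to Dnajc27 (0.977), Spry1 (0.963) and the collagen IV gene Col4a2 (0.950), and Ddr2 to Zbtb20 (0.976), Tmtc3 (0.972) and Zfyve9 (0.969). Itgb1 was closest to Dst (0.964), which encodes a large cytoskeletal linker, and to Gm37274 (0.944) and Gm4349 (0.943). Itga1 had lower values, with Tspoap1 (0.920), Arfgap1 (0.915) and Gm14325 (0.908), and Itga2 was below the level needed.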

How the data were processed

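mRNA of 9 C2C12 samples was sequenced by the authors as single reads of 50 bp from polyA-selected libraries. The deposited count table holds expected counts, which the authors estimated per gene with Salmon on GRCm38 and wrote as whole numbers without normalization. The other deposited table holds a normalized signal, in which the authors had divided each sample's counts by its DESeq2 size factor, and was used only to check levels. The annotation release and strandedness are not given in the sources used here. Gene names and positions were taken from GENCODE M21 (52762 of 52780 genes matched; of the list genes Col21a1 did not). Promoter windows were RefSeq sequences on GRCm38.p6.

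Groups and replicate numbers came from the sample labels, and the study's methods call the replicates independent. In R 4.3.3, edgeR 4.0.16 was used with TMM scaling, filterByExpr (19545 genes left), 1 model over the 9 samples and the legacy form of the quasi-likelihood test. Calls were made at an adjusted p of 0.05 or less, as in the study's methods. DESeq2 1.42.0, limma 3.58.1 (voom), other scalings and filters, the replicate block and leaving out each sample were alternatives. The fits were tested on simulated data. At this depth 3 counts correspond to 0.0711 to 0.0812 CPM, a floor that covers counting error only.

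Pairing was checked by the correlation of deviations from group means. Between WT and si mH2A1.2, samples of the same number correlated at r of 0.196 to 0.331 (other pairs -0.267 to 0.0358). Every such pair was above the limit of 0.1. With si mH2A1.1 not every pair was, at 0.0841 to 0.0976 against WT and 0.0917 to 0.116 against si mH2A1.2. These pairs were still above the other pairs (-0.0739 to -0.0213 and -0.0961 to -0.0122). In the deposited column names, samples that share a replicate number carry neighbouring numbers in all 3 groups. Falling below the limit therefore does not show that the si mH2A1.1 samples were unpaired. A replicate effect that includes them is likely, and the unblocked tests do not take it into account. With the block, si mH2A1.1 against WT had 4065 called genes in place of 2171, and the same 2 collagen receptor genes were called. Because of the limit, the block is given beside results mainly for si mH2A1.2 against WT. For some lists and for the number of all genes called, it is given for the other comparisons too.

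All 7 collagen receptor genes are named. From other lists, the 2 genes with the largest absolute log2 fold change among those called, Col1a1 and Col1a2 could be named. Others are named where a count was small or to show uncalled markers of a list, after their values were seen. The members and lists were chosen with earlier results of these data known.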

Additional observations from a re-analysis of the deposited data

How the results depend on the processing

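The calls of Itga10 and Itga11 in both comparisons with si mH2A1.1 as the first group were kept under every alternative run. Leaving out a sample gave 2 to 3 called members for si mH2A1.1 against WT, 0 to 1 for si mH2A1.2 against WT and 2 to 4 between the knockdowns. The stricter rule left 0 members for si mH2A1.2 against WT, where Itga11 was at 1.88, and ended the call of Ddr1 between the knockdowns. The replicate block called 2 members for si mH2A1.2 against WT and changed no other call of a member. Over all genes the block gave 4065 calls in place of 2171 for si mH2A1.1 against WT, 1005 in place of 460 for si mH2A1.2 against WT and 5674 in place of 4397 between the knockdowns. DESeq2 gave 3354 and 1113 calls in the comparisons with WT, and the stricter rule 352, 35 and 1247 in the 3 comparisons. Without a sample the calls ranged from 605 to 2928, 74 to 544 and 2251 to 4616.

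Signs changed for members whose values were near 0, none of them called there. For si mH2A1.1 against WT, leaving out a sample moved Itga2 from -0.28 to 0.40, Itgb1 from -0.10 to 0.038, Ddr1 from -0.13 to 0.022 and Ddr2 from -0.32 to 0.16. For si mH2A1.2 against WT it moved Itga1 from -0.40 to 0.13, Itga2 from -0.26 to 0.49 and Itgb1 from -0.068 to 0.034. Between the knockdowns it moved Itga2 from -0.43 to 0.23 and Itgb1 from -0.094 to 0.037. limma-voom put Itga2 at 0.064 with si mH2A1.1 against WT and at 0.034 between the knockdowns, and a fit of only the groups compared put Itgb1 at 0.00093 with si mH2A1.2. The cause was not tested.

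Without division by length the share of Itga1 among the α subunits was 3.35% in WT, 10.97% after macroH2A1.1 knockdown and 1.33% after macroH2A1.2 knockdown, and that of Itga2 was 0.816% in WT and 5.15% with si mH2A1.1. With the length of all exons together, chosen after seeing the data, the share of Itga1 was 0.955%, 3.39% and 0.374%. Itga2 rests on 6 to 18 counts a sample.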
